A study of Mus musculus with 4 samples.

Results

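The matrix metalloproteases (MMPs), the ADAMTS proteases, the ADAMTS-like proteins and the tissue inhibitors of metalloproteases (TIMPs) were examined as a family in chromatin accessibility profiles of mouse glioblastoma. Members were chosen by gene symbol alone, as the protein-coding genes of the GENCODE M21 annotation named Mmp or Timp with a number, or starting with Adamts. This gave 50 of 21951 protein-coding genes. For each member, peaks were collected at the promoter, defined as 1000 bp on either side of any transcription start of the annotation's basic set of transcripts, and in the gene body with 20 kb on either side.

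Tumors were grown from mG7080, a line of murine glioblastoma spheres that lacks Trp53 and Nf1, in the brains of C57BL/6 mice. The hosts were female mice aged 6 to 8 weeks at injection, and either lacked Esm1 (KO) or carried it (WT). Esm1 encodes Endocan, a proteoglycan that endothelial cells secrete, and the deletion lay in the host while the injected tumor cells were the same in both groups. ATAC-seq, in which a transposase inserts adapters into open chromatin, was performed on 2 KO tumors and 2 WT tumors, and each tumor gave 1 peak list. The comparison asks whether the accessibility of these genes differed with the Endocan status of the host. The labels describe tumor tissue and the study's methods freshly isolated tumor cells, so host cells may have been included. In such bulk samples, fewer cells with an open site and a less open site in each cell cannot be told apart.

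MMPs are zinc-dependent endopeptidases that are made as inactive proenzymes and cut collagens, gelatin, proteoglycans and cell surface proteins. ADAMTS proteases are secreted relatives with thrombospondin repeats, and they include the aggrecanases and versicanases, which cut the proteoglycans that fill the extracellular space of the brain, and the procollagen N-proteinases. TIMPs bind the active site of these enzymes and block it. In glioblastoma the gelatinases and the membrane-type MMPs are well known for their part in invasion along vessels and fiber tracts.

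The 4 lists held 82975 and 85418 peaks in the KO libraries, against 63000 and 100088 peaks in the WT libraries. The heights of the peaks, meaning the number of reads stacked at the summit, were recovered from the deposited fold and p-value of each peak. The lowest local background of each library served as its genome background and as a measure of depth. It was 6.03 and 6.71 reads in KO replicates 1 and 2, against 4.41 and 6.85 reads in WT replicates 1 and 2, so that WT replicate 1 was the shallowest library. The lowest peaks that were called stood at 2.34 to 2.94 times the genome background, and a site below this level appears here as having no peak. Of 12 glioma cell markers, 9 and 11 had a promoter peak in the KO libraries, against 9 and 9 in the WT libraries. Of 12 endothelial markers, 1 (Kdr) was open in all libraries, 3 in some and 8 in none, Pecam1 and Cdh5 among them. Of 12 microglia and macrophage markers, 3 (Aif1, Cd68 and Tmem119) were open in some libraries and 9 in none, Csf1r and Ptprc among them, and all 10 neutrophil markers had no peak. Peaks seen in 1 library alone differed in number. A promoter peak was found in KO replicate 2 alone at 381 of 21951 genes, against 39 in KO replicate 1 alone and 38 and 173 in WT replicates 1 and 2 alone. Among distal regions the largest number seen in 1 library alone was that of WT replicate 2, at 17026, beside 4165 and 9416 in KO replicates 1 and 2 and 3664 in WT replicate 1.

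The promoters of the family fell into contrasting kinds of sequence. The examples shown here differ in whether a peak was called and were picked for the motifs they hold. The first set comes from the MMP cluster of chromosome 9, where no promoter had a peak in any library. Each stretch runs from 120 bases before to 20 bases from the RefSeq transcription start (GRCm38.p6), 5′ to 3′. Capitals mark TGANTCA, the binding motif of AP-1, and TATAA on either strand. Only the promoters of the cluster that held TGANTCA are printed. Those of Mmp8 and Mmp27 and the other RefSeq starts of Mmp12 (chr9:7344277-7344416) and Mmp7 (chr9:7692221-7692360) held no TGANTCA. They had no peak either and are not printed.

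Mmp13 (chr9:7272394-7272533, plus strand): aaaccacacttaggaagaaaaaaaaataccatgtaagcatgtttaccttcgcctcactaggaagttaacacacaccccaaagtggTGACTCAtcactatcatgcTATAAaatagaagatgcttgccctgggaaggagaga
Mmp1b (chr9:7388007-7388146, minus strand): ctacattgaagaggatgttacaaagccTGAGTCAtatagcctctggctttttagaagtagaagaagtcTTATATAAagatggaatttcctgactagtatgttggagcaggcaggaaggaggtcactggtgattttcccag
Mmp3 (chr9:7445702-7445841, plus strand): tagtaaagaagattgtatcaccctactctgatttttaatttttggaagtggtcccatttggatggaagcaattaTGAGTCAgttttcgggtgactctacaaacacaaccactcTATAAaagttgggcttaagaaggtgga
Mmp10 (chr9:7502222-7502361, plus strand): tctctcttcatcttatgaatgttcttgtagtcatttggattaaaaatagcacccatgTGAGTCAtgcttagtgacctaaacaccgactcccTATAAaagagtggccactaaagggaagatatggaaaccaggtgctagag
Mmp7 (chr9:7691970-7692109, plus strand): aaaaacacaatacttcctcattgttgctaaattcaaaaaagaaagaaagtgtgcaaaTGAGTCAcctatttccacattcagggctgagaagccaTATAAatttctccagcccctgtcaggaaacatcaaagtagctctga
Mmp12 (chr9:7347254-7347393, plus strand): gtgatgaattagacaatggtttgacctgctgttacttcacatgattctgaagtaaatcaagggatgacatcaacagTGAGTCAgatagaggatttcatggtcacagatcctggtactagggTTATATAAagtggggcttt
Mmp20 (chr9:7628111-7628250, plus strand): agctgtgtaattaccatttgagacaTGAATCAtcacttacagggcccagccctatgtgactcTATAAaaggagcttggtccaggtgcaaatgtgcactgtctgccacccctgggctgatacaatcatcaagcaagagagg

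The second set comes from members with a peak in every library. The stretches have the same length, and capitals mark GGGCGG, the GC box bound by SP and KLF factors, on either strand.

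Adamts20 (chr15:94404331-94404470, minus strand): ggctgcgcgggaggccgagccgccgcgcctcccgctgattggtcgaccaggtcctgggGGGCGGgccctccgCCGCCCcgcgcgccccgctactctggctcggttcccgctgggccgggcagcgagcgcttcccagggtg
Timp2 (chr11:118355392-118355531, minus strand): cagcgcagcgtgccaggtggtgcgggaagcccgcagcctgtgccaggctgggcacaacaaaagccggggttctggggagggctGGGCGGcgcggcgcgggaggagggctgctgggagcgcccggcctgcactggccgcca
Mmp24 (chr2:155775222-155775361, plus strand): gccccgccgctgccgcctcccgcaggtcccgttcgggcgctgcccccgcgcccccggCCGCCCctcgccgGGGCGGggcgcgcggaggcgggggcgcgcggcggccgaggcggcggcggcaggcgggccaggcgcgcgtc

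A promoter peak was present in all 4 libraries at 23 of the 50 members, in some libraries at 12 and in none at 15. Among all protein-coding genes the corresponding counts were 13310, 1436 and 7205. The choice of starts mattered for 6 members. With the starts of all annotated transcripts the counts became 28, 10 and 12, since Mmp9, Mmp11, Timp3, Adamts13 and Adamtsl2 then had a promoter peak in every library and Adamtsl5 in 3. This setting was chosen after seeing the data. It gave no KO-only or WT-only member. By library, 26 and 33 members had a promoter peak in the KO tumors, against 25 and 31 in the WT tumors. As a share this was 52% and 66% in KO, against 50% and 62% in WT, beside 63.2% and 65.2% in KO and 62.1% and 64.3% in WT for all genes. The peaks of open members had a lower median height than those of all open genes. The median height over genome background of the 23 promoters open throughout was 7.30 and 7.60 times in KO, against 8.83 and 6.72 times in WT, while over all 13310 such promoters it was 12.4 and 13.0 times in KO and 14.7 and 12.7 times in WT.

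**Figure D1:**
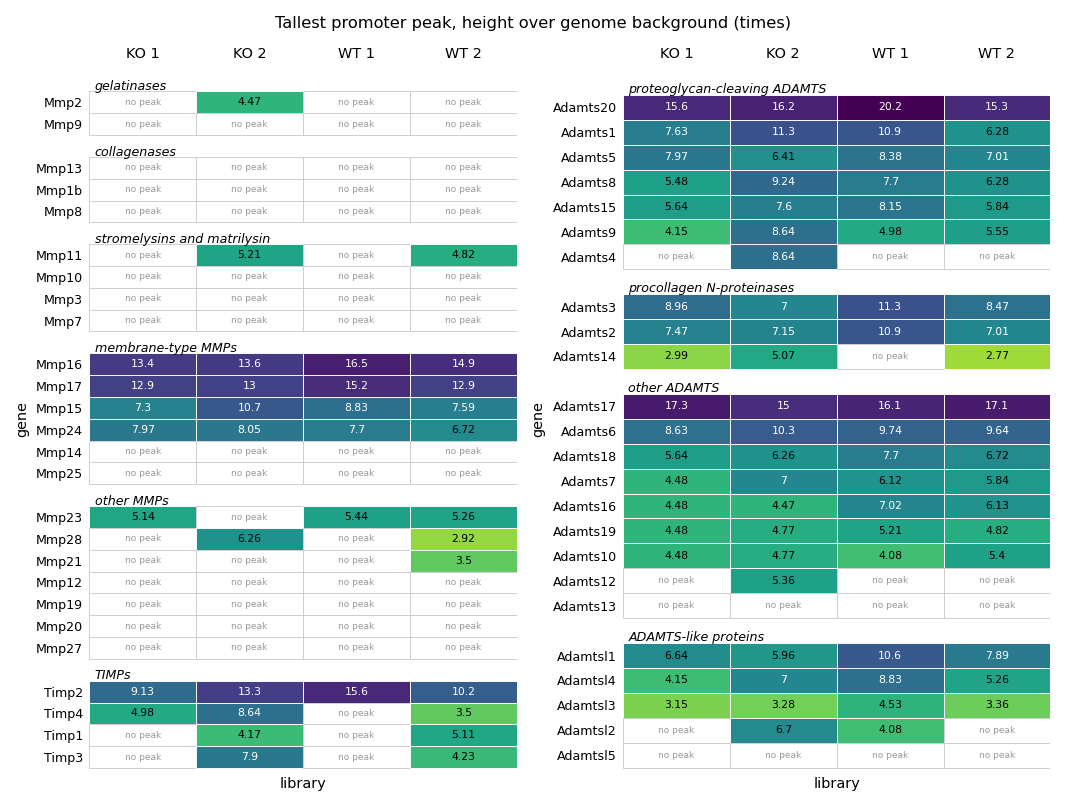
Height of the tallest promoter peak over the genome background of its library (times, number and color) for the 50 members (rows, grouped by role) in KO replicates 1 and 2 and WT replicates 1 and 2 (columns), with white cells where no peak was called. The ADAMTS groups are filled almost throughout, whereas the collagenases are empty in all 4 libraries.

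The secreted MMPs of the classical substrate groups were almost devoid of promoter peaks. The members of the collagenase group, Mmp1b, Mmp8 and Mmp13, had none in any library. The stromelysins Mmp3 and Mmp10, which cut many matrix proteins and activate other MMPs, and the matrilysin Mmp7 had none either. Mmp11, the stromelysin that is activated inside the cell by furin, had peaks of height 35 in KO replicate 2 and 33 in WT replicate 2, and no peak in the other library of each group. Both starts of Mmp11 lie within 1000 bp of a start of Chchd10, so its peak cannot be assigned to Mmp11 alone.

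The gelatinases, which cut denatured collagen and basement membrane collagen, also lacked a shared promoter peak. Mmp9 (chromosome 2, 164940780 to 164955850) had no peak in any library at the start of its basic transcript, at 164948219. A region within the gene, counted as its promoter when the starts of all transcripts were used. Mmp2 (chromosome 8, 92827291 to 92853420) had a promoter peak of height 30 in KO replicate 2 and none in KO replicate 1 or in either WT library. This peak was at percentile 19.1 of fold within its own list.

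Of the membrane-type MMPs, which are anchored at the cell surface, 4 of 6 were open in all libraries, beside 60.6% of all genes. The collagenase, stromelysin and gelatinase groups above had no member open in all libraries. Mmp16 (chromosome 4, 17852893 to 18119145) had heights of 81 and 91 in KO, against 73 and 102 in WT. Mmp17 had 78 and 87 in KO, against 67 and 88 in WT. The raw heights of the groups overlapped at both genes. Mmp15 had heights of 44 and 72 in KO, against 39 and 52 in WT, and Mmp24, which is prominent in the nervous system, had 48 and 54 in KO, against 34 and 46 in WT. Mmp14, the principal activator of pro-MMP2, and Mmp25 had no promoter peak in any library. Of the other MMPs, Mmp12 (macrophage elastase), Mmp19, Mmp20 (enamelysin) and Mmp27 had none. Mmp23 had peaks of height 31 in KO replicate 1 and 24 and 36 in both WT libraries, but none in KO replicate 2. Mmp28 (epilysin) had heights of 42 in KO replicate 2 and 20 in WT replicate 2 only, and Mmp21 had a single peak of height 24, in WT replicate 2.

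All 4 TIMPs had a promoter peak in at least 2 libraries. Timp2, which both inhibits MMPs and takes part in the activation of pro-MMP2 at the cell surface, was the only one open throughout, with heights of 55 and 89 in KO, against 69 and 70 in WT. Over the genome background these were 9.13 and 13.3 times in KO, against 15.6 and 10.2 times in WT, and the groups overlapped. Timp3, the inhibitor that is bound to the matrix and also acts on ADAMTS enzymes, had heights of 53 in KO replicate 2 and 29 in WT replicate 2 and no peak in the other library of each group. Timp1 (chromosome X, 20870166 to 20874735) had heights of 28 in KO replicate 2 and 35 in WT replicate 2 only. Timp4 had heights of 30 and 58 in the KO libraries, against 24 in WT replicate 2 and no peak in WT replicate 1. The Timp4 promoter counted as KO-only when weaker peaks were removed, either by a −log10 q threshold of 5 or by cutting all lists to one length. Of all protein-coding genes, 57 and 58 were KO-only in these settings. Most of the TIMPs lie within introns of synapsin genes (Timp1 in Syn1, Timp3 in Syn3 and Timp4 in Syn2), so signal there belongs to a position shared with a neuronal gene.

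The proteases that cut proteoglycans were open as a group. A peak was called at the promoter of 6 of these 7 ADAMTS genes in all 4 libraries, beside 60.6% of all genes. Adamts20 (chromosome 15, 94270163 to 94465418) ranked highest, with heights of 94 and 109 in KO, against 89 and 105 in WT, and its peak stood between percentile 97.3 and 98.2 of fold in every list. The aggrecanase and versicanase Adamts5 had heights of 48 and 43 in KO, against 37 and 48 in WT. Adamts1, which is also known as an inhibitor of angiogenesis, had 46 and 76 in KO, against 48 and 43 in WT. In WT replicate 2 the tallest Adamts1 peak lay in a region in the first part of the gene (chr16:85802111-85802696), and not at the start as in the other libraries. Adamts9 had heights of 25 and 58 in KO, against 22 and 38 in WT, and Adamts8 had 33 and 62 in KO, against 34 and 43 in WT. Adamts15 had 34 and 51 in KO, against 36 and 40 in WT. The raw heights of the groups overlapped at Adamts1, Adamts5, Adamts8, Adamts9 and Adamts15. Adamts4 (aggrecanase 1) had a promoter peak of height 58 in KO replicate 2 alone, 54 bp from its start, at percentile 5.39 of fold.

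The procollagen N-proteinases, which trim the propeptides of fibrillar collagens, were open as well. Adamts2 had heights of 45 and 48 in KO, against 48 and 48 in WT, and Adamts3 had 54 and 47 in KO, against 50 and 58 in WT. Adamts14 had heights of 18 and 34 in KO, against 19 in WT replicate 2 and no peak in WT replicate 1. Among the 9 remaining ADAMTS genes, Adamts17 gave the tallest peaks, with heights of 104 and 101 in KO, against 71 and 117 in WT. Adamts6 had 52 and 69 in KO, against 43 and 66 in WT, and Adamts18 had 34 and 42 in KO, against 34 and 46 in WT. Adamts7 had 27 and 47 in KO, against 27 and 40 in WT. Adamts10, Adamts16 and Adamts19 were open in every library with heights between 18 and 42. Adamts12 had a peak of height 36 in KO replicate 2 alone, and Adamts13, which cleaves von Willebrand factor, had none. The ADAMTS-like proteins resemble these enzymes but lack the protease domain. Adamtsl1 had heights of 40 and 40 in KO, against 47 and 54 in WT. Adamtsl4 had 25 and 47 in KO, against 39 and 36 in WT, and Adamtsl3 had 19 and 22 in KO, against 20 and 23 in WT. Adamtsl2 had peaks of height 45 in KO replicate 2 and 18 in WT replicate 1 only, while Adamtsl5 had none. Its nearest region that was open in every library lay 2148 bp upstream of its start, outside the promoter window.

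The presence of a peak went with the CpG content of the promoter, in the family and over all genes. The ratio of observed to expected CpG was taken in 500 bp on either side of the start. For a gene with several starts the highest ratio was used, whether or not that start had a peak. The median was 0.703 in the 23 members open in every library, 0.384 in the 12 members open in some and 0.176 in the 15 members without a peak. Over all genes the medians were 0.753, 0.389 and 0.189. A ratio of at least 0.6 was found in 18 of 23, 3 of 12 and 1 of 15 members. The one exception without a peak was Mmp14, at 0.624. Conversely, Adamts5, Adamts16 and Adamtsl1 were open in every library at ratios of 0.304, 0.356 and 0.389.

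**Figure D2:**
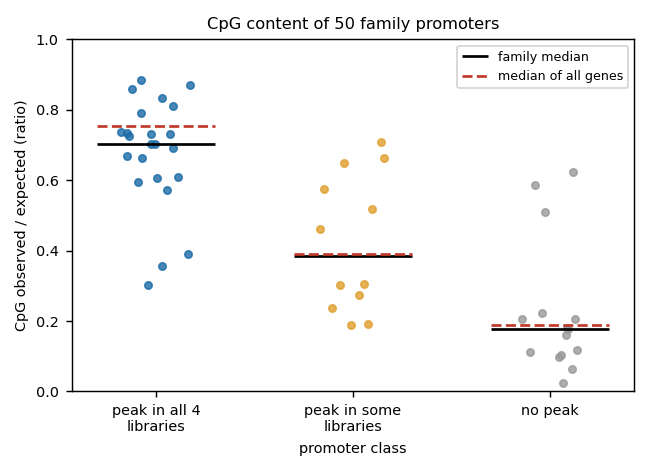
Ratio of observed to expected CpG (vertical axis, no unit) for the 50 members (points) with a promoter peak in all 4 libraries, in some or in none, with the median of the family (solid line) and of all protein-coding genes in that class (dashed line). For a gene with several starts the highest ratio is shown. The family medians of 0.703, 0.384 and 0.176 lie close to those of all genes.

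Promoter sequence from RefSeq, 250 bases before to 50 bases from the start, was matched for 35 of the 50 members, which gave 38 promoters. Sites were searched on both strands. TGANTCA was found in 7 of 15 promoters of members without a peak, in 0 of 11 of those open in some libraries and in 0 of 12 of those open in all, beside 7.81% of 32851 RefSeq promoters. These 7 promoters are the ones printed above, from Mmp13, Mmp1b, Mmp3, Mmp10, Mmp7, Mmp12 and Mmp20. All 7 lie in the chromosome 9 cluster of neighboring genes, so they are not 7 independent promoters. No matched member without a peak outside this cluster held the motif. The motif began between 35 and 95 bases before the start, at −35 in Mmp13, −46 in Mmp3 and −63 in Mmp10 and Mmp7. TATAA was found in 8 of 15, 4 of 11 and 1 of 12 promoters of the same classes, beside 24.9% of all, and where its reverse complement overlapped it the promoter was counted once. GGGCGG was found in 4 of 15, 7 of 11 and 11 of 12, beside 35.7% of all. These counts describe letters in a window and not sites that were bound.

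Next, the KO and WT tumors were compared. No member had a promoter peak in both KO libraries and neither WT library, and none had one in both WT libraries and neither KO library. Among all protein-coding genes, 0.296% (65 genes) were KO-only and 0.132% (29 genes) were WT-only. With KO replicate 1 left out, 3 members counted as KO-only (Adamts4, Adamts12 and Mmp2) and 1 as WT-only (Mmp23), beside 446 and 98 of all 21951 genes. With WT replicate 2 left out, 2 counted as KO-only (Adamts14 and Timp4), beside 331 of all genes, and with WT replicate 1 left out, 1 counted as WT-only (Mmp21), beside 202. With KO replicate 2 left out there were none of either kind, beside 104 KO-only and 107 WT-only genes in all.

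Peak heights were then tested with limma, on the log2 scale after centring each library on its median, for the promoters with a peak in every library. Of 13310 genes, 2 had an adjusted p under 0.05 (0.015%), and none of the 23 members did. At an unadjusted p under 0.05 there were 0 members, beside 525 of all 13310 promoters. No alternative setting called a member. With all 4 libraries kept, the unadjusted count was highest with log2 fold in place of height, at 2 members beside 556 of all 13310 promoters. The differences of the members ranged between −0.45 at Adamts16 and 0.29 at Adamts9 (log2 KO minus WT), with 11 higher and 12 lower in KO. The largest in relation to its error was at Adamtsl1, at −0.44 (SE 0.22, n = 2 per group, limma adjusted p = 0.998). With the starts of all transcripts the Adamtsl1 difference was −0.26 (SE 0.21). The median absolute difference between the KO and WT means was 0.14 over the members, beside 0.092 over all promoters tested. Between single libraries it was 0.21 for the 2 KO tumors and 0.20 for the 2 WT tumors over the members, beside 0.14 and 0.13 over all promoters. The centred heights of the groups did not overlap at 6 of the 23 members. They were higher in KO at 1 (Mmp24), beside 15.0% of all promoters, and lower in KO at 5 (Adamts16, Adamts18, Adamtsl1, Adamtsl3 and Mmp16), beside 16.2%. With 2 tumors in each group an exact permutation test of a single gene cannot give a p below 0.333, and the limma p-values measure only the spread among these 4 tumors.

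**Figure D3:**
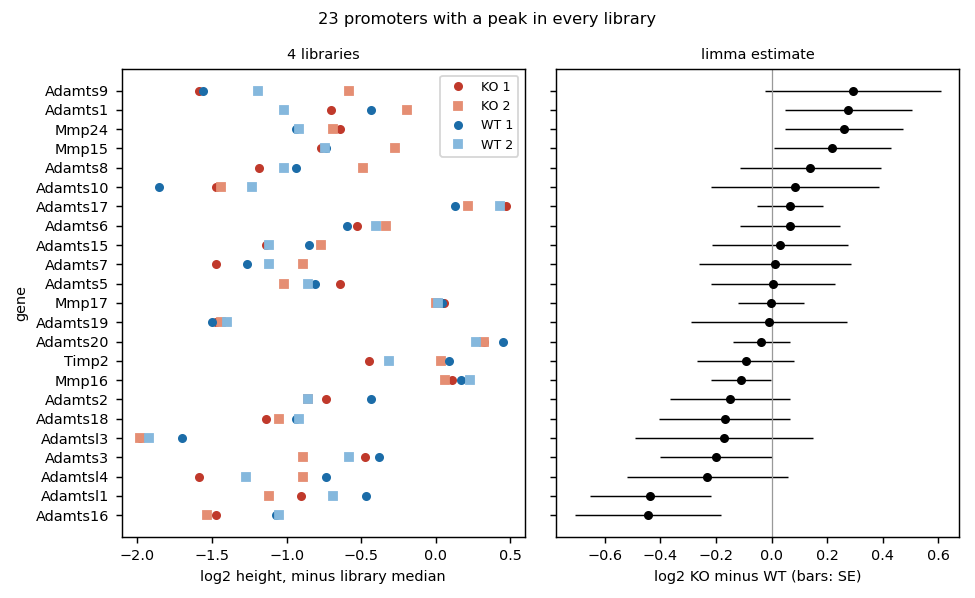
For the 23 members with a promoter peak in every library, the left panel gives the log2 height minus the median of the library in KO replicates 1 and 2 and WT replicates 1 and 2, and the right panel gives the limma difference, log2 KO minus WT, with its SE as bars. The differences run between −0.45 and 0.29, and no member had an adjusted p under 0.05.

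Calls that differed among libraries were then read by library. Of the 12 members with a peak in some libraries, 3 and 10 had one in KO replicates 1 and 2, against 2 and 8 in WT replicates 1 and 2. The libraries had the same order over the 1342 genes of this kind, with 37.6% and 69.9% in KO, against 22.3% and 57.4% in WT. The commonest pattern was a peak in KO replicate 2 and WT replicate 2 only, at 4 members (Mmp11, Mmp28, Timp1 and Timp3), which is 8% of the family beside 0.483% of all genes. These are also the libraries with the higher genome background, and the part of depth in this pattern was not tested. A peak in KO replicate 2 alone was found at 3 members (Adamts4, Adamts12 and Mmp2), or 6%, beside 1.74% of all genes. The summed promoter height over background of the family was 190.2 and 263 in the KO libraries, against 236 and 218 in the WT libraries. The sums of the 12 glioma cell markers were 61.9 and 106 in KO, against 78.2 and 58.0 in WT, and KO replicate 2 was the highest library in both lists. Among the markers Gfap had a peak in KO replicate 2 alone, Olig2 had heights of 26 and 71 in KO, against 31 and 23 in WT, and Cspg4 had no peak in any library. The sums of the endothelial markers were 4.65 and 10.9 in KO, against 4.98 and 10.4 in WT. The part of cell makeup in these values was not tested.

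The family lay within or near 260 distal regions, that is, merged peaks that overlap no promoter. Of these, 81 had a peak in all 4 libraries, 50 in 3, 44 in 2 and 85 in 1. A total of 188 lay in the body of a member, 27 in the body of another gene only and 45 between genes. At least 1 distal region was found for 43 members. Counted among these were regions at the 5′ end of transcripts outside the basic set. That of Adamtsl1 (chr4:85513604-85515035) had heights of 28 and 51 in KO, against 22 and 44 in WT, and that of Adamts20 (chr15:94465072-94465585) had a height of 24 in KO replicate 2 alone. The long genes held most, led by Adamtsl1 with 41, Adamts17 with 16, Adamts3 with 14, Adamts20 with 13 and Mmp16 with 12. Mmp3, Mmp8, Mmp10 and Mmp13 had no peak of any kind in any library within 20 kb.

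**Figure D4:**
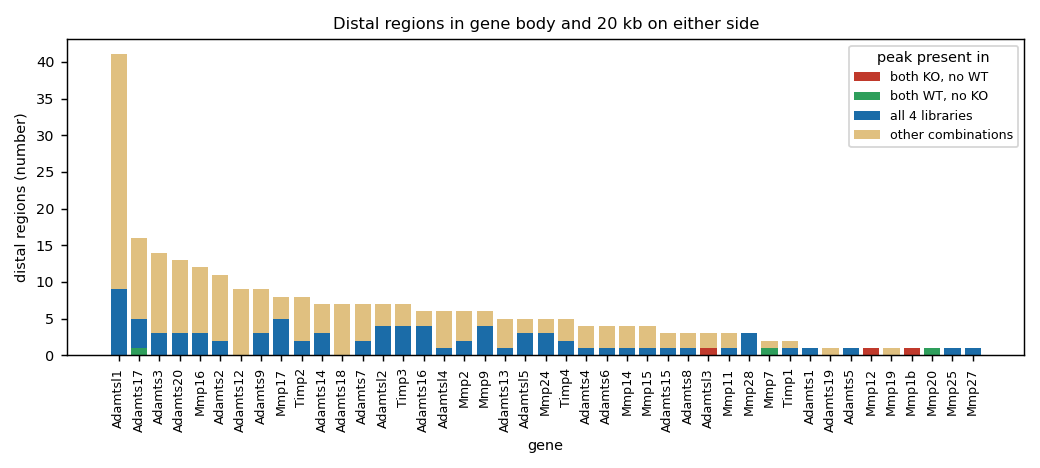
Number of distal regions (vertical axis) in the gene body and 20 kb on either side for each member with at least 1 (horizontal axis), colored by the libraries in which a peak was present. Adamtsl1 has 41 regions, of which 9 are in all 4 libraries, and regions seen in both libraries of 1 group only are rare.

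The strongest distal regions open in every library lay at genes whose own promoters differed widely. A region downstream of Adamts4 (chr1:171262591-171263867) had heights of 80 and 94 in KO, against 71 and 86 in WT, although the Adamts4 promoter was called in KO replicate 2 alone. An intronic region of Adamts1 (chr16:85800735-85801787) had 82 and 99 in KO, against 68 and 83 in WT. An intronic region of Timp2 (chr11:118327146-118328418) had 73 and 111 in KO, against 54 and 78 in WT. A region near the 3′ end of Mmp28 (chr11:83440108-83441543) had 58 and 70 in KO, against 57 and 63 in WT.

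A distal region open in every library was found at 6 of the 15 members without a promoter peak, namely Mmp9, Mmp14, Mmp25, Mmp27, Adamts13 and Adamtsl5. Mmp9 had 4. The tallest (chr2:164938475-164939734), with its summit 9381 bp upstream of the Mmp9 start at 164948219, had heights of 56 and 67 in KO, against 51 and 77 in WT. A region in an intron of Mmp9 (chr2:164953192-164953689) had 45 and 41 in KO, against 36 and 40 in WT. Mmp2 had regions open in every library too, one of them 8952 bp upstream of its start (chr8:92818063-92818783) with heights of 36 and 73 in KO, against 42 and 57 in WT. In an intron of Mmp2 (chr8:92850103-92850755) the heights were 36 and 95 in KO, against 36 in WT replicate 1 and no peak in WT replicate 2. KO replicate 2 was again the highest library in the latter region.

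Only a few distal regions separated the groups by presence. Of the 260, 2 were KO-only and 2 were WT-only, or 0.769% each, beside 1.81% and 1.61% of all 106735 distal regions. The KO-only regions lay in an intron of Mmp12 (chr9:7354396-7354865), with heights of 24 and 28, and in an intron of Adamtsl3 (chr7:82504097-82504495), with heights of 23 and 21. The WT-only regions lay 1943 bp upstream of Mmp7 (chr9:7689881-7690358), with heights of 20 and 26, and in an intron of Adamts17 (chr7:67108847-67109702), with heights of 16 and 23. All of these heights were below the median peak height of their library, which was 31 and 33 in KO and 26 and 34 in WT. With KO replicate 1 left out the counts became 33 KO-only and 8 WT-only, with KO replicate 2 left out 9 and 3, with WT replicate 1 left out 6 and 38, and with WT replicate 2 left out 41 and 13. The same counts over all distal regions were not computed with a library left out, so these have no comparison.

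Heights of the 132 merged regions open in every library, promoter regions included, were tested in the same way. Of all 48089 such regions limma called 19 (0.0395%), and none of the 132 was among them. An unadjusted p under 0.05 was found at 4 of the 132, beside 1480 of all 48089, and these 4 are given as values only. An exonic region of Mmp25 (chr17:23630137-23630633) had heights of 65 and 54 in KO, against 23 and 54 in WT (log2 difference 0.63, SE 0.25, limma adjusted p = 1.0). An exonic region of Adamts5 (chr16:85887333-85888211) had 34 and 58 in KO, against 19 and 39 in WT (0.59, SE 0.27), and an intronic region of Adamtsl1 (chr4:85922609-85923377) had 55 and 69 in KO, against 27 and 56 in WT (0.55, SE 0.24). In all 3 the lowest value was that of WT replicate 1, the shallowest library. An intronic region of Adamts3 (chr5:89839082-89839995) had 20 and 23 in KO, against 23 and 38 in WT (−0.58, SE 0.26). The adjusted p was 1.0 at each of them.

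The MMP cluster of chromosome 9 joins Mmp13, Mmp12, Mmp1b, Mmp3, Mmp10, Mmp8, Mmp27, Mmp20 and Mmp7 in one stretch of secreted enzymes. With 20 kb on either side it spans 467 kb, from 7252514 to 7719585, and held 5 merged regions. That is 10.7 regions per Mb, beside 44.8 per Mb over the genome. By library 4 and 4 of the regions had a peak in KO, against 3 and 4 in WT. None lay at a promoter. The tallest (chr9:7594833-7595841) lay 12948 bp beyond the end of Mmp27. It had heights of 55 and 81 in KO, against 58 and 61 in WT, and stood between percentile 97.7 and 99.6 of fold in the 4 lists. A smaller region beside it (chr9:7603340-7604289) had 22 and 33 in KO, against 20 and 27 in WT, and lay outside the 20 kb flanks of every member. The KO-only region of Mmp12 also falls within 20 kb of Mmp1b, and the WT-only region upstream of Mmp7 within 20 kb of Mmp20. The fifth region, downstream of Mmp7 (chr9:7714101-7714470), had heights of 17 and 24 in KO, against 22 in WT replicate 2 and no peak in WT replicate 1.

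**Figure D5:**
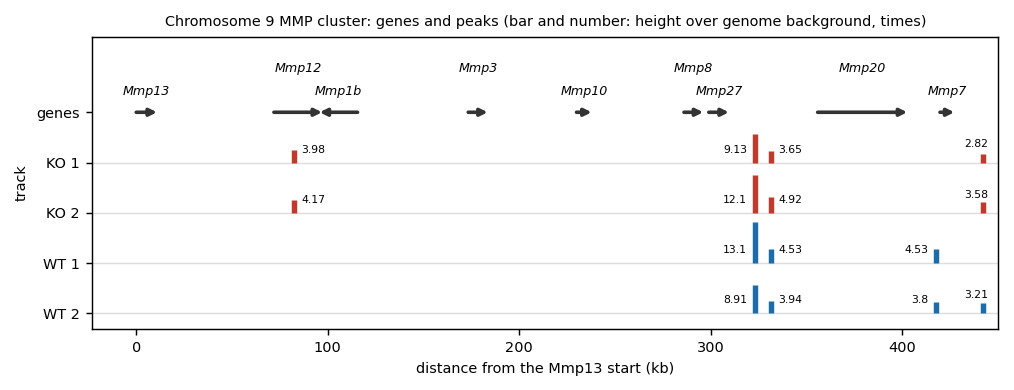
Genes of the chromosome 9 cluster (arrows, pointing in the direction of transcription) and peaks in KO replicates 1 and 2 and WT replicates 1 and 2 against distance from the Mmp13 start (horizontal axis, kb), where the height of each bar and its number give the peak height over genome background (times). No peak lies at a gene start, and the tallest peak, at 8.91 to 13.1 times, lies beyond the end of Mmp27 in every library.

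Sequence at the summits of 3 of these regions is shown because they separate by group or stand out in the cluster. Each has 151 bases of the plus strand of GRCm38, centred on the summit, and capitals mark TGANTCA.

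Mmp12 intron, KO-only (chr9:7354559-7354709, plus strand): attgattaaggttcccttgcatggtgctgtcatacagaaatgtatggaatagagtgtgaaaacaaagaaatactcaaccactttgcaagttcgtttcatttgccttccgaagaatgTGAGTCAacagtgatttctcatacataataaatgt
Upstream of Mmp7, WT-only (chr9:7690072-7690222, plus strand): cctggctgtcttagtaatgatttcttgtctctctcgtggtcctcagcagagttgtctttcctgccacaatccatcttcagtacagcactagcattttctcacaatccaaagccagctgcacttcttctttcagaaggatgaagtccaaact
Downstream of Mmp27, all 4 libraries (chr9:7595283-7595433, plus strand): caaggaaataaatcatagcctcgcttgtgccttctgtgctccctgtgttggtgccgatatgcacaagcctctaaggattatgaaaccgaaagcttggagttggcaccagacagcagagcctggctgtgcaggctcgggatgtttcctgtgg

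The region in the Mmp12 intron held TGANTCA, and those upstream of Mmp7 and downstream of Mmp27 did not. Within 100 bp of the summit the motif was found in 30 of the 260 distal regions of the family (11.5%), beside 13.3% of all distal regions. GGGCGG was found in 26 (10%), beside 6.26%.

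Genes that act with the family were described in the same way. Of 27 genes of related proteolysis, including the MMP inhibitor Reck, furin, the plasminogen activators and the ADAM proteases, 19 had a promoter peak in all 4 libraries, 2 in some and 6 in none, beside 60.6% of all genes in all 4 and 32.8% in none. Reck, which restrains several MMPs at the cell surface, had heights of 41 and 59 in KO, against 36 and 51 in WT. Furin, which activates the membrane-type MMPs, had 43 and 68 in KO, against 44 and 50 in WT. Plaur, the receptor of urokinase, and Papln, a relative of the ADAMTS-like proteins, had a peak in KO replicate 2 alone. Of 24 matrix substrates, 16 were open in all libraries, 4 in some and 4 in none, the last being Dcn, Col1a2, Col3a1 and Vwf. Sparc had heights of 22 and 56 in KO, against 16 in WT replicate 1 and no peak in WT replicate 2. No gene of either list was KO-only or WT-only. Limma called 0 of the 19 and 0 of the 16 promoters that it could test, with 0 and 1 (Lamc1) at an unadjusted p under 0.05.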

How the data were processed

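The authors deposited 1 ATAC-seq peak list per tumor. MACS2, HOMER and the mm10 build are named in the submitters' processing notes, whereas the study's methods describe Bowtie2, GRCm38 and Genrich, and the deposited columns follow MACS2. Each deposited peak holds a score, a fold (the ratio to local background) and p- and q-values written as −log10, all from the authors' peak caller. Adapter-shift settings were not given in the sources used here. The files give no read counts. Heights were recovered as the whole number that fits the fold and the Poisson p-value (within 0.001 for all 331481 peaks) and were tested on simulated data.

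Peaks sharing at least 1 bp were merged. KO-only means a peak in both KO and neither WT library, and WT-only the reverse. Percentiles rank peaks by fold within a list. Log2 heights were tested with limma 3.58.1 (R 4.3.3, trend, Benjamini-Hochberg over all genes or regions), which sees only sites with a peak in all 4 libraries. Gene models were GENCODE M21, with 41538 starts of basic-set transcripts (93526 starts of all transcripts), and Mmp1a, which is not annotated there as protein-coding, was left out. RefSeq promoter sequence was not matched for Adamts4, Adamts5, Adamts6, Adamts7, Adamts8, Adamts10, Adamts15, Adamts16, Adamts19, Adamtsl1, Mmp2, Mmp9, Mmp16, Mmp17 and Mmp19. No sequence is printed for these.

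Members, lists, motifs and tests were chosen with earlier results of these data known. Genes named with values were those whose promoter call differed between libraries, up to 4 per role with the highest promoters, any called by limma and the 5 with most distal regions. Distal regions named were the KO-only and WT-only ones and the 5 strongest in all libraries. Others were chosen after their values were seen. The other marker lists gave promoter peaks at 1 and 3 of 12 endothelial markers in KO against 1 and 3 in WT, at 6 and 6 of 12 mural and fibroblast markers in KO against 5 and 8 in WT, at 2 and 2 of 12 microglial markers in KO against 0 and 2 in WT, and at 8 and 9 of 10 neuronal markers in KO against 9 and 9 in WT. Replicate numbers came from the sample titles. The deposited list of KO replicate 2 carries the number 1 in its own name, so the numbers of the KO libraries are less certain than their group. Nothing in the titles ties a KO tumor to a WT tumor. The labels describe separate tumors. Alternatives were other scalings, peak thresholds, promoter widths, flanks, overlaps, transcription starts, a replicate block and leaving out each library.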

Additional observations from a re-analysis of the deposited data

How the results depend on the processing

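No setting gave a member promoter or member region an adjusted p under 0.05 (limma). Over all genes, the 2 promoters called became 10 with heights scaled to the genome background, 0 with log2 fold in place of height (556 at an unadjusted p under 0.05), and 4 under the stricter −log10 q of 5, with promoters of 500 bp and with promoters of 2500 bp. Leaving out one library gave 3 to 229 promoters, the most without KO replicate 1 (229) and then without KO replicate 2 (10). The 19 regions called over all merged regions became 8 with log2 fold and 10 with a −log10 q of at least 5, and leaving out one library gave 7 (KO replicate 2) to 70 (KO replicate 1). With 1 library left in a group, that library is assumed to vary like the others.

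With the replicate number as a block, 12 promoters and 10 regions were called, and no member. Deviations of same-numbered tumors were correlated at −0.20 over promoters and −0.34 over regions, and nothing in the labels ties same-numbered tumors. Crossing the numbers, a setting chosen after seeing the data, gave 35 promoters and 101 regions.

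KO-only member promoters numbered 1 instead of 0 under the stricter −log10 q of 5, beside 57 of all genes. They also numbered 1 when the lists were cut to one length, beside 58, and 0 to 3 with one library left out. WT-only member promoters numbered 1 (Mmp7) with promoters of 2500 bp, beside 33 of all genes, and 0 to 1 with one library left out. The following counts of member distal regions have no counterpart over all distal regions, which was not computed in any alternative setting. KO-only distal regions numbered 6 instead of 2 when the lists were cut to one length and 4 when 50% of a region had to be covered, and 6 to 41 with one library left out. WT-only distal regions numbered 5 with a −log10 q of at least 5, 6 with 50% coverage and 3 to 38 with one library left out. With a library left out, a KO-only or WT-only call has fewer conditions to meet, so those counts can rise whatever the data. They therefore cannot show how far the group counts rest on single libraries. The causes of the changes were not tested. Members open in all libraries ranged between 19 and 26 over the settings of threshold and promoter width and were 28 with the starts of all transcripts, beside 23 in the report. With those starts 2 promoters and 19 regions were called over all genes and regions, no member among them. Depth limits the absence of a peak, most in WT replicate 1.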

Other observations

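Mmp1a (chromosome 9, 7464141 to 7476869), which the annotation does not list as protein-coding and which therefore was not a member, lies within the same chromosome 9 cluster. It had 0 promoter peaks and 0 peaks within 20 kb in each KO and each WT library.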
